A study of Homo sapiens with 12 samples.

Results

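Cells commit to a division in the G1 phase, when the kinases CDK4 and CDK6 pair with a D-type cyclin and phosphorylate the retinoblastoma protein. This releases the E2F factors, which switch on the genes of DNA synthesis. The INK4 proteins bind CDK4 and CDK6 and block them. The CIP/KIP proteins bind complexes of cyclins and kinases, mainly those of CDK2. Differentiating myeloid cells leave the cycle through this step, and retinoic acid is known for driving such differentiation in leukemic cells.

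The genes described here are the 5 inhibitors CDKN1B (p27, CIP/KIP), CDKN1C (p57, CIP/KIP), CDKN2B (p15, INK4), CDKN2C (p18, INK4) and CDKN2D (p19, INK4), the 3 D-type cyclins CCND1, CCND2 and CCND3, and the 2 kinases CDK4 and CDK6. They are a fixed list of 10 symbols among the 46639 of the table, found by symbol. Each was read as the sum of its transcript rows, 34 rows in all. RNA was sequenced from MOLM-13, an acute myeloid leukemia cell line that carries an MLL fusion and grew here with GM-CSF in the medium of every group. The study's methods, however, list FCS and antibiotics for the medium of this line and name no GM-CSF. One group of 3 libraries was untreated and carries a label of 96 h. The others, also 3 libraries each, received 100 nM decitabine (DAC, which is built into DNA and traps DNA methyltransferases), 1 µM all-trans retinoic acid (ATRA, a ligand of the retinoic acid receptors) or both (DAC+ATRA), each with a label of 72 h. The labels call the libraries technical triplicates of 1 line, so every p-value below measures the spread within 1 experiment. No library is labelled as a vehicle control, whereas the study's methods state that control cells received the vehicles. In a comparison with untreated cells, the label of time cannot be told apart from the treatment. The same limit holds for sums of single-drug changes and for interactions of the drugs, which also use the untreated libraries. According to the study's methods, ATRA was added later than DAC, so it acted for less time than the label gives.

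Depth in recovered reads (M, mega) was 8.95 to 11.9 M for untreated libraries, 4.67 to 6.95 M after DAC, 8.36 to 10.7 M after ATRA and 5.61 to 7.16 M after both. Values are the authors' normalised read counts, which correct for depth. Within groups, libraries differed by more than counting noise, with a chi-square per degree of freedom of 2.18 to 29.1. Untreated replicate 3, DAC replicate 3 and ATRA replicate 1 each lay apart from both other libraries of their group, at 19.4 to 29.1. All 8 myeloid markers had reads in every group, with SPI1 at 335 to 467 and ITGAM lowest at 5.65 to 63.5 normalised counts over the 12 libraries. Their summed count moved with treatment, from 68570 to 76690 in untreated libraries to 180700 to 221000 after DAC, 21740 to 26670 after ATRA and 67780 to 71970 after both. LYZ made up most of this sum in untreated, DAC and DAC+ATRA libraries, with group means of 41630, 153300 and 40820, against 6819 after ATRA. Not every marker followed the sum. By limma at an adjusted p under 0.01, ATRA raised 1 of the 8 (ITGAM, log2 change 2.52) and lowered 4. DAC raised 3 and lowered 1 (FLT3, -0.77). Markers of other cell types (13 genes) summed to 82.0 to 91.6 in untreated cells, 109.9 to 137 with DAC, 141 to 176 with ATRA and 137 to 188 with both drugs, with CD2, MS4A1 and COL1A2 among those at 0 throughout. In this list COL1A1 and CD79A had the largest log2 changes against untreated. COL1A1 rose from a mean of 8.03 in untreated to 79.0 in ATRA (3.19). CD79A rose from 3.07 in untreated to 33.8 in DAC+ATRA (3.17). The part of either list in the results below was not tested.

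All coordinates are on GRCh38. Among the inhibitors, CDKN1B lies at chr12:12685498-12722369 on the plus strand, CDKN1C at chr11:2883213-2885775 (minus), CDKN2B at chr9:22002903-22009305 (minus), CDKN2C at chr1:50960745-50974634 (plus) and CDKN2D at chr19:10566460-10569059 (minus). The cyclin CCND1 lies at chr11:69641156-69654474 (plus), CCND2 at chr12:4269771-4305353 (plus) and CCND3 at chr6:41934934-42050357 (minus). The kinases CDK4 and CDK6 lie at chr12:57747727-57756013 and chr7:92604921-92836573, both on the minus strand.

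Decitabine acts at CpG sites, and promoters rich in them are the sites where its effect on methylation is usually sought. The RefSeq promoter table (GRCh38.p14) holds 7 of the 10 genes and lacks CDKN1C, CCND1 and CCND2. Over the 250 bases before the start, CpG sites numbered 33 in CDKN2D, 30 in CDK6, 27 in CDKN1B, 26 in CCND3, 19 in CDK4, 18 in CDKN2B and 7 in CDKN2C, against a median of 11 over 35114 promoters (quartiles 3 and 23). Methylation of these windows was not analysed here. For CDKN2C and CCND3, the window lies before a start other than that of the transcript row with most of the reads. The CDKN1B window is shown because CDKN1B was lower in every treated group and its window does lie before the row that held all of its reads (chr12:12717118-12717367, plus strand). Capitals mark its CpG sites.

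CDKN1B promoter: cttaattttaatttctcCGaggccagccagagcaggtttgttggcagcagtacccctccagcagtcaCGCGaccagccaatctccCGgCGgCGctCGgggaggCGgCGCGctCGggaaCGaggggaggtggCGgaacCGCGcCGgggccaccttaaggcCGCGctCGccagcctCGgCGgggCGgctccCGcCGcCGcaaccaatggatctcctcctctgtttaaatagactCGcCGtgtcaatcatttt

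The E-box CACGTG, the recognition sequence of MYC/MAX and related factors, reads the same on both strands. It occurred 3 times in the 250 bases before the CDK4 start (216, 196 and 101 bases before it). Only 28 of the 35114 promoters (0.0797%) held 3 or more, and 6.35% held at least 1. CDKN2C was the only other of the 7 windows with an E-box. None of the 7 held the retinoid half-sites AGGTCA or GGTTCA (present in 12.1% and 7.16% of promoters) or the E2F letters TTTCCCGC or TTTGGCGC (1.39% and 0.55%), on either strand. The outer 113 bases of the CDK4 window, which lie before all 3 of its transcript rows (chr12:57752448-57752560, minus strand), are shown for their E-boxes, in capitals.

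CDK4 promoter, outer bases: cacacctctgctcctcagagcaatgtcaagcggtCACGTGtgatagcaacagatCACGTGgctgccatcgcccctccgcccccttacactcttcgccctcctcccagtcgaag

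The first question was which of the 10 genes could be measured. CDKN2B held 0 reads in all 12 libraries, which allows a level of up to 0.251 to 0.642 RPM, that is, reads per M reads (3 reads of each library's total, counting error only). CDKN1C held 2 reads in all, 1 in an untreated and 1 in an ATRA library. For CDKN1C this says little, since of its 9 transcript rows the 5 found in GENCODE 44 have at most 5 bases each that no other listed row shares, and how the counting treated shared bases is not stated. The longer CDKN2B row has 1878 such bases. The other 8 genes reached 10 normalised counts in 3 or more libraries and were tested among 10642 protein-coding genes by limma, with a call at a Benjamini-Hochberg adjusted p under 0.01.

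**Figure D1:**
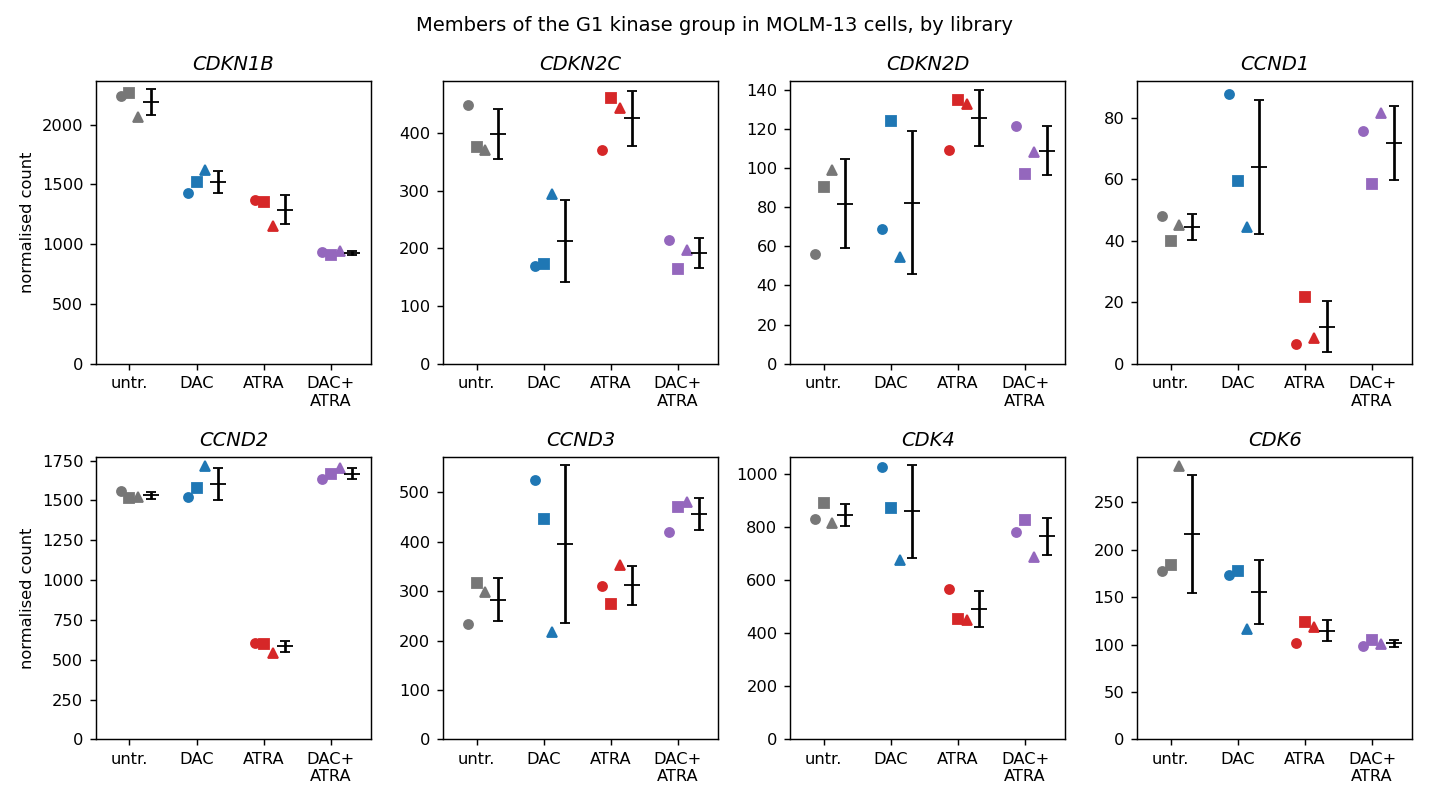
Normalised read count (linear axis from 0) of the 8 tested genes in each library, with circles, squares and triangles for replicates 1, 2 and 3. Black marks give the mean and SD of each group (n = 3). CDKN1B steps down from untreated to DAC+ATRA, whereas CCND2 is low in ATRA alone (545 to 607).

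Among the CIP/KIP inhibitors, CDKN1B was lower in all 3 treated groups, and its lowest level was with both drugs. Its normalised counts were 2237, 2263 and 2061 in untreated cells, 1432, 1521 and 1618 with DAC, 1367, 1352 and 1151 with ATRA and 938, 910 and 941 with both drugs. Untreated and DAC+ATRA overlapped with no other group, while every ATRA library lay below every DAC library without a call between them (log2 change -0.24, limma adjusted p = 0.0617). The means fell from 2187 ± 110 (SD, n = 3) to 1524 ± 92.6, 1290 ± 121 and 930 ± 17.5. On the log2 scale the change was -0.52 (SE 0.10, limma adjusted p = 0.00133) with DAC, -0.76 (0.10, 5.41e-06) with ATRA and -1.23 (0.10, 1.05e-08) with DAC+ATRA. Adding ATRA to DAC lowered CDKN1B by a log2 change of -0.71 (limma adjusted p = 1.98e-05), and adding DAC to ATRA by -0.47 (limma adjusted p = 0.00224).

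The log2 changes of CDKN1B with the single drugs summed to -1.29, next to the -1.23 measured with both. Their interaction was 0.05, with a 95% confidence interval of -0.24 to 0.35 (limma adjusted p = 0.922). Without untreated replicate 2 the DAC call of CDKN1B was lost (log2 change -0.50, limma adjusted p = 0.0123). The call between DAC+ATRA and ATRA was lost without ATRA replicate 2, DAC+ATRA replicate 2 or DAC+ATRA replicate 3 (-0.48 to -0.43, limma adjusted p = 0.0103 to 0.0163). All reads of CDKN1B came from ENST00000228872.9, in which only 157 bases of the 3′ UTR are shared with no other listed row.

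Among the INK4 inhibitors, CDKN2C fell in both groups that received DAC and was not called with ATRA alone. Its normalised counts were 449, 376 and 371 in untreated and 371, 461 and 444 in ATRA, against 169, 172.5 and 294 in DAC and 214, 164 and 197 in DAC+ATRA. Every library with DAC lay below every library without it. CDKN2C fell with DAC (398 ± 43.6 to 212 ± 71.1; log2 change -0.95, SE 0.18, limma adjusted p = 0.00138) and in DAC+ATRA (192 ± 25.3; -1.05, limma adjusted p = 0.000141). DAC also lowered it in the presence of ATRA, by a log2 change of -1.15 (95% interval -1.53 to -0.76, limma adjusted p = 0.000167). The change with ATRA alone was 0.09 (-0.29 to 0.48, limma adjusted p = 0.735), and the interaction was -0.20 (-0.74 to 0.35, limma adjusted p = 0.818).

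The DAC library that stood apart, replicate 3, had the highest CDKN2C count of its group. Without it the log2 change with DAC was -1.21 (limma adjusted p = 4.58e-06). Without untreated replicate 1 or DAC replicate 2 the change was -0.86 or -0.83 and the call was lost (limma adjusted p = 0.0116 and 0.0111). ENST00000371761.4, which starts at chr1:50970245, held 96.1% to 98.4% of the CDKN2C counts in each group.

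CDKN2D was not called in any comparison by limma over the 12 libraries. Its normalised counts were 56.0, 90.1 and 99.1 in untreated cells, 68.7, 124 and 54.4 with DAC, 109, 135 and 133 with ATRA and 122, 96.8 and 108 with both drugs. All ATRA libraries lay above all untreated ones, with means of 126 ± 14.2 and 81.7 ± 22.7 (log2 change 0.65, 95% interval 0.10 to 1.20, limma adjusted p = 0.0598). The CDKN2D reads per library were few, from 50 to 181. Without DAC replicate 2, ATRA was higher than DAC at 1.02 (limma adjusted p = 0.00273, against 0.68 and 0.0438 with it).

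The D-type cyclins bring CDK4 and CDK6 to their substrates, and of these CCND1 and CCND2 had the largest log2 changes among the 8 tested genes. CCND2 had 1557, 1517 and 1520 normalised counts in untreated cells, 1521, 1578 and 1715 with DAC, 607, 598 and 545 with ATRA and 1635, 1663 and 1703 with both drugs. ATRA alone stood apart from the 9 other libraries. The mean of CCND2 fell from 1531 ± 22.1 to 583 ± 33.5 with ATRA, a log2 change of -1.39 (SE 0.09, limma adjusted p = 6.90e-10). With DAC present, ATRA gave a log2 change of 0.06 (95% interval -0.14 to 0.26, limma adjusted p = 0.70). DAC+ATRA lay above ATRA by 1.51 (limma adjusted p = 1.60e-09) and differed from untreated by 0.12 (-0.08 to 0.32, limma adjusted p = 0.328).

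The interaction of CCND2, that is, the change in DAC+ATRA minus the sum of both single changes, was 1.45 (95% interval 1.17 to 1.73, limma adjusted p = 3.44e-06). By unadjusted p it ranked 6 among the 10642 genes. DAC alone left CCND2 at 1605 ± 99.8 (0.07, -0.13 to 0.26, limma adjusted p = 0.708). The single changes would sum to -1.33, and 0.12 was measured. CCND2 was read from a single row, ENST00000261254.8, of whose 6493 exonic bases 5494 are shared with no other listed row.

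CCND1 showed the same order as CCND2 at a much lower count. Its normalised counts were 48.2, 39.8 and 45.2 in untreated cells, 87.8, 59.6 and 44.6 with DAC, 6.27, 21.6 and 8.36 with ATRA and 75.6, 58.5 and 81.7 with both drugs. Every ATRA library lay below all others, with 7 to 29 reads each. CCND1 fell from 44.4 ± 4.27 to 12.1 ± 8.30 with ATRA (log2 change -1.97, SE 0.35, limma adjusted p = 0.000174). It was higher in DAC+ATRA than in ATRA by 2.65 (95% interval 1.91 to 3.38, limma adjusted p = 2.21e-05) and above untreated by 0.67 without a call (-0.06 to 1.41, limma adjusted p = 0.137). Its interaction of 2.18 (1.14 to 3.22) missed the threshold (limma adjusted p = 0.0162). It passed in DESeq2 (1.99, adjusted p = 0.00202) and in limma without ATRA replicate 2 (2.66, limma adjusted p = 0.00161). Of the exonic bases of its main row, 497 are antisense to another listed row, and the strand setting of the counting is not stated.

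CCND3, the third D-type cyclin, was not called in any comparison by limma over the 12 libraries. It had 233, 317 and 298 normalised counts in untreated cells, 524, 445 and 217 with DAC, 310, 274 and 352 with ATRA and 420, 469 and 480 with both drugs. All DAC+ATRA libraries lay above all untreated and ATRA libraries, and the DAC libraries spread over the whole range. The change in DAC+ATRA was 0.70 (456 ± 32 against 283 ± 44; 95% interval 0.22 to 1.17, limma adjusted p = 0.0194), which missed the threshold. DAC replicate 3, at 217, lay below both other DAC libraries. Without it, CCND3 was called higher in DAC (0.78, limma adjusted p = 0.000579) and in DAC+ATRA (0.70, limma adjusted p = 0.000171) than in untreated, and in both DAC (ATRA minus DAC -0.64, 0.00139) and DAC+ATRA (0.55, 0.00333) than in ATRA. Without DAC replicate 1 it was called in DAC+ATRA as well (limma adjusted p = 0.00911), as it was by DESeq2 over all libraries (0.69, adjusted p = 0.00728). With ATRA alone the change was 0.15 (-0.33 to 0.62, limma adjusted p = 0.666). ENST00000372991.9 held 82.2% to 87.9% of the CCND3 counts and ENST00000372987.8 held 10.7% to 16.2%.

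**Figure D2:**
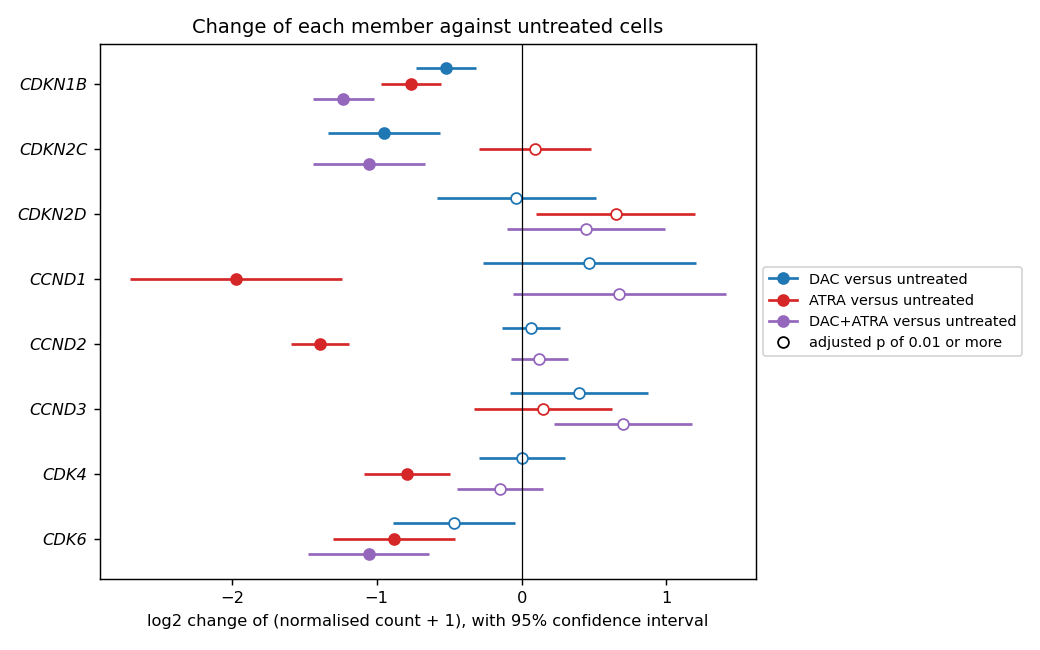
Log2 change against untreated of the 8 tested genes (horizontal axis, with 95% confidence intervals from limma) for DAC, ATRA and DAC+ATRA. Filled points were called. CCND1, CCND2 and CDK4 have filled points with ATRA alone (-1.97, -1.39 and -0.79).

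Of the kinases, CDK4 fell with ATRA and was not called against untreated with both drugs. Its normalised counts were 830, 892 and 815 in untreated cells, 1027, 873 and 677 with DAC, 568, 455 and 449 with ATRA and 781, 825 and 687 with both drugs. The ATRA libraries lay below all 9 others. CDK4 fell from 846 ± 41.1 to 491 ± 67.0 (log2 change -0.79, SE 0.14, limma adjusted p = 0.000174) with ATRA. In DAC+ATRA the change from untreated was -0.15 (95% interval -0.44 to 0.15, limma adjusted p = 0.43). DAC+ATRA was above ATRA by 0.64 (limma adjusted p = 0.0027), a call that was lost without ATRA replicate 2, ATRA replicate 3, DAC+ATRA replicate 1 or DAC+ATRA replicate 2 (0.58 to 0.63, limma adjusted p = 0.0145 to 0.0208). The interaction of 0.64 (0.22 to 1.06) was not called (limma adjusted p = 0.0918). Of the 1865 exonic bases of the main CDK4 row, 1078 are antisense to another listed row.

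CDK6 fell with ATRA and with both drugs. It had 178, 184 and 289 normalised counts in untreated cells, 173, 177 and 116 with DAC, 102, 124 and 119 with ATRA and 98.0, 105 and 101 with both drugs. All libraries with ATRA lay below all untreated ones, and untreated replicate 3 was far above the other two. The log2 change was -0.88 for ATRA (SE 0.20, limma adjusted p = 0.00165) and -1.06 for both drugs (SE 0.20, limma adjusted p = 0.000302). Without untreated replicate 3 the CDK6 call with ATRA was lost (-0.66, limma adjusted p = 0.0175). With DAC alone the change was -0.47 (95% interval -0.88 to -0.05, limma adjusted p = 0.127). DAC+ATRA minus DAC was -0.59 (limma adjusted p = 0.0325), called without DAC replicate 3 (-0.78, limma adjusted p = 0.00358).

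CDK6 was the only gene of the 10 whose count came from 2 rows of similar size. ENST00000265734.8, which starts at chr7:92833917, had 100.3, 87.7 and 131 normalised counts in untreated cells, 61.1, 78.4 and 65.3 with DAC, 43.0, 40.9 and 35.9 with ATRA and 23.8, 34.9 and 28.6 with both drugs. No 2 groups overlapped for this row. In a limma fit with transcript rows as features, chosen after seeing the data, it fell by a log2 change of -1.37 for ATRA (limma adjusted p = 0.00011), -1.83 for both drugs (limma adjusted p = 3.77e-06), and by -1.21 from DAC to DAC+ATRA (limma adjusted p = 0.000598).

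The other row, ENST00000424848.3, starts upstream at chr7:92836573 and had 77.8, 96.6 and 157 normalised counts in untreated against 74.2, 69.8 and 72.5 in DAC+ATRA, all of them below the lowest untreated library. Its changes were -0.51 with ATRA and -0.55 with DAC+ATRA, without a call (limma adjusted p = 0.189 and 0.145). The share of ENST00000265734.8 in the CDK6 count was 49.0% in untreated cells, 43.9% with DAC, 34.8% with ATRA and 28.7% with both drugs. Whether the changes of both rows differ was not tested. The rows differ in 45 and 96 bases of 5′ UTR, so each rests on a short stretch of a transcript of over 11 kb.

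**Figure D3:**
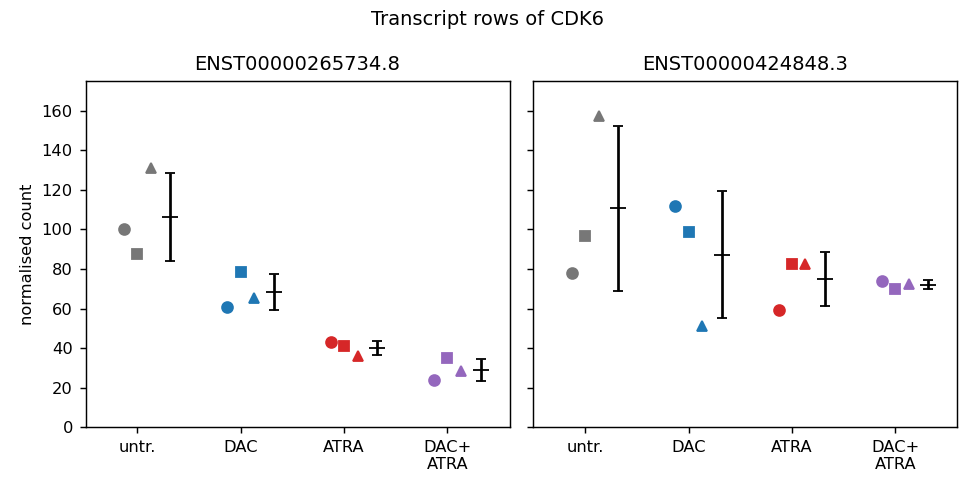
Normalised read count (linear axis from 0) of both transcript rows of CDK6 in each library, with circles, squares and triangles for replicates 1, 2 and 3 and the mean and SD beside them (n = 3). The row on the left steps down from 106 in untreated to 29.1 in DAC+ATRA, whereas for the row on the right DAC and ATRA libraries overlap with untreated ones.

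Counted over the list, DAC changed 2 of the 8 tested genes, both lower (CDKN1B and CDKN2C), where 7.97% of all tested genes were called (4.29% higher and 3.67% lower). The DAC count was 0 in a fit of only the DAC and untreated libraries (limma adjusted p = 0.0123 for CDKN1B and 0.0322 for CDKN2C). ATRA changed 5 of 8, all lower (CDKN1B, CCND1, CCND2, CDK4 and CDK6), against 26% of all genes (12.1% higher and 14% lower). DAC+ATRA changed 3 of 8 against untreated, all lower (CDKN1B, CDKN2C and CDK6), against 28.9% of all genes (14.5% higher and 14.4% lower). The median log2 change of the 8 genes was -0.78 with ATRA (-0.04 over all genes), -0.02 with DAC (0.00 over all genes, -0.0041) and -0.01 with DAC+ATRA (-0.0039 over all genes).

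Between treated groups, DAC+ATRA differed from DAC in 1 of 8 genes (CDKN1B, lower), where 18.8% of all genes were called (9.04% higher and 9.74% lower). It differed from ATRA in 5 of 8, with CCND1, CCND2 and CDK4 higher and CDKN1B and CDKN2C lower, against 11.9% of all genes (6.47% higher and 5.46% lower). ATRA against DAC gave 1 gene higher (CDKN2C) and 3 lower (CCND1, CCND2 and CDK4), where 29.4% of all genes were called (13.2% higher and 16.2% lower). The interaction was called in 1 of 8 genes, CCND2, against 1.6% of all genes (0.724% higher and 0.874% lower).

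**Figure D4:**
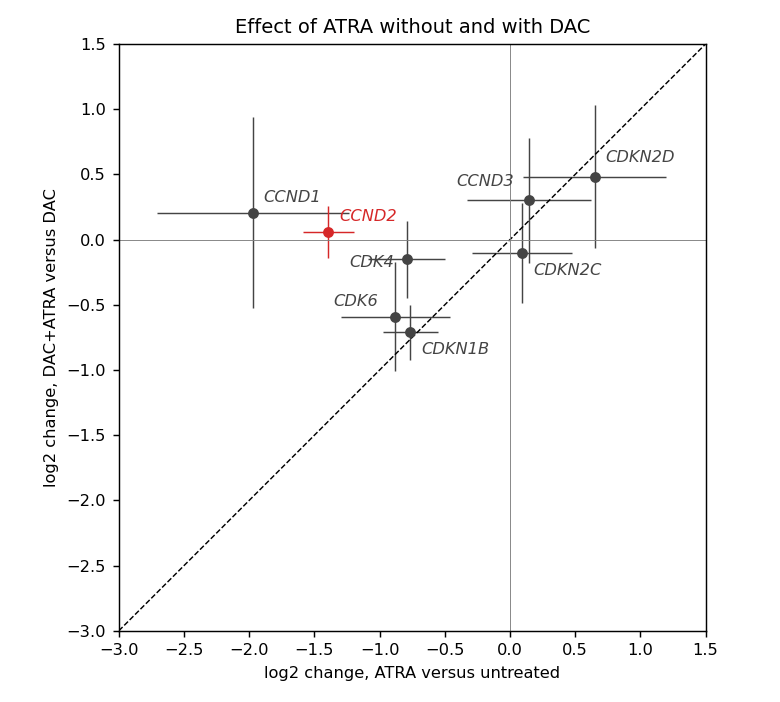
Log2 change by ATRA in cells without DAC (horizontal axis) and with DAC (vertical axis) for the 8 tested genes, with 95% confidence intervals. On the dashed line both are equal; CDKN1B lies on it (-0.76 and -0.71), whereas CCND2 (red, interaction called; -1.39 and 0.06) lies above it.

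The genes around this step were read from a fixed list of 28 (the retinoblastoma family, E2F factors and their partners, cyclins E and A, CDK2 and regulators of these kinases), of which 25 were tested. ATRA lowered 11 of the 25 and raised 0, with a median log2 change of -0.73, where 14% of all tested genes were lower and 12.1% higher. DAC raised 2 and lowered 0 (4.29% and 3.67% of all genes). DAC+ATRA against untreated raised 1 and lowered 2 (14.5% and 14.4% of all genes). DAC+ATRA against ATRA raised 6 and lowered 0 (6.47% and 5.46% of all genes). DAC+ATRA against DAC raised 1 and lowered 5 (9.04% and 9.74% of all genes), with a median log2 change of -0.42. With ATRA, the activating factors E2F1 and E2F2 fell from 453 to 188 and from 343 to 123.5 normalised counts (log2 change -1.34 and -1.50, limma adjusted p = 1.53e-05 and 9.14e-07). E2F7, an atypical E2F that represses, fell by -1.84 (limma adjusted p = 0.00352), from 19.2 to 5.11 normalised counts. It is a low gene, with at most 34 reads in any library. TFDP1, the partner of E2F factors in DNA binding, fell by -0.57 (limma adjusted p = 0.000246). All of these, E2F1, E2F2, E2F7 and TFDP1, were higher again in DAC+ATRA than in ATRA (0.98, 1.64, 2.16 and 0.42; limma adjusted p = 0.00102, 1.13e-06, 0.00201 and 0.00735).

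Cyclins that act after the D-type cyclins fell with ATRA too, namely CCNE2 (-1.56, limma adjusted p = 0.000357), CCNA2 (-1.18, 0.00118) and, most of all, CCNA1 (-2.88, 2.52e-11), the A-type cyclin of germ cells and some leukemias. CCNA1 rose with DAC (from 266 to 467, 0.80, limma adjusted p = 0.00158) and was the only gene of this list with a called interaction (1.20, limma adjusted p = 0.00338). The kinase CDK2 fell with ATRA (-0.64, limma adjusted p = 0.00218), as did its activating phosphatase CDC25A (-1.32, 0.0064) and FBXO4, an F-box protein reported to act on cyclin D1 (-0.79, 0.00777). MNAT1, a subunit of the kinase complex that activates CDKs, fell against untreated with ATRA (-0.76, limma adjusted p = 0.00105) and in DAC+ATRA (-1.18, 1.05e-05), with no call between these 2 groups (-0.42, 0.0733), and E2F4, which acts mostly as a repressor, rose in DAC+ATRA (1108 to 1989, 0.85, 1.55e-05).

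Genes of DNA synthesis and mitosis were read beside the members. Of 20 proliferation genes, all tested, ATRA lowered 15 and raised 1, where 14% of all tested genes were lower and 12.1% higher. DAC lowered 0 and raised 1 (3.67% and 4.29% of all genes), and DAC+ATRA lowered 7 and raised 0 against untreated (14.4% and 14.5%). DAC+ATRA raised 6 and lowered 0 against ATRA (6.47% and 5.46%). Against DAC it lowered 9 and raised 1 (9.74% and 9.04%), with a median log2 change of -0.79. The interaction was called in 0 of these 20 genes (1.6% of all genes). Their summed normalised count was 20140 to 21590 in untreated cells, 24240 to 26260 with DAC, 8710 to 12220 with ATRA and 14360 to 16760 with both drugs, so no 2 groups overlapped. TOP2A, MCM2, CCNB1 and MCM6 made up most of this sum, with means of 8918, 3304, 2610 and 2305 in untreated cells. None of them was called with DAC against untreated. The sum was lowest in ATRA, as were CCND1, CCND2 and CDK4, whereas CDKN1B, CDKN2C and CDK6 had their lowest means in DAC+ATRA. In DAC+ATRA every library's sum lay below every untreated one, whereas CCND2 lay above. The part of a change in the share of cycling cells in these levels was not tested. In RNA from a whole culture, fewer cells that express a gene and less RNA per cell cannot be told apart.

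**Figure D5:**
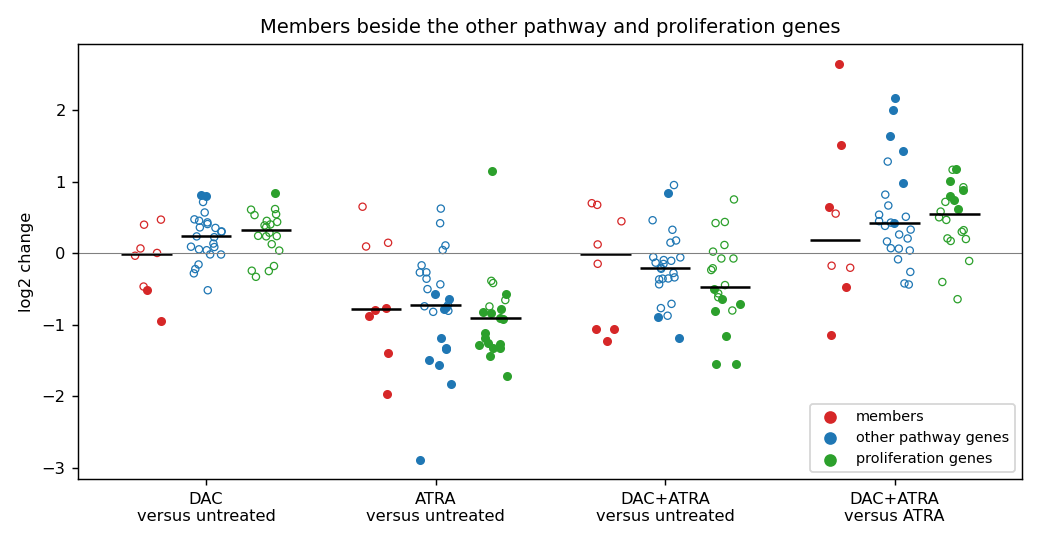
Log2 change of the 8 tested members, the 25 other pathway genes and the 20 proliferation genes in 4 comparisons (filled points were called, black bars are medians). With ATRA the medians of all 3 sets lie below 0, and in DAC+ATRA against ATRA they lie above 0.

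Over the 12 libraries, the genes whose log2 levels followed the 6 members called in a comparison of groups most closely were SLC38A2 and INHBA for CDKN1B (Pearson r = 0.99 for both), MINDY2 and SLU7 for CDKN2C (0.97 for both), CBX8 and ATAD3A for CCND1 (0.95 and 0.94), PHKA2 and CPD for CCND2 (0.97 for both), H2AX for CDK4 (0.97) and MAFG and ZNF740 for CDK6 (0.97 and 0.94). These coefficients describe 4 groups of 3 libraries that share treatment and depth, and carry no test. INHBA, a subunit of activin, had the steepest steps, with means of 1239 in untreated cells, 292 with DAC, 182 with ATRA and 66.4 with both drugs. CPD, a carboxypeptidase, had 5892, 6354, 3373 and 7150 in the same order.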

How the data were processed

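The authors aligned reads of ribosome-depleted, strand-specific libraries to hg38 with STAR, counted them per transcript with htseq-count and normalised them with DESeq2. Versions, annotation release and strand setting are not given in the sources used here. The deposited values are a normalised signal per transcript row (100502 rows). Columns named CTRL were taken as untreated. Every value was a whole multiple of 1 read within 0.01 reads (100% of rows in each library), so reads were recovered. Rows were summed per symbol. GENCODE 44 (GRCh38, 88.9% of rows matched) gave biotypes and coordinates, and RefSeq the promoters. Reads counted per transcript cannot rank different genes by level.

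The main test was limma 3.58.1 (R 4.3.3; trend) on log2(normalised count + 1) over all 12 libraries, which understates changes of low genes. Protein-coding symbols that reached 10 normalised counts in 3 or more libraries entered. Pathway genes were named if called in a comparison of groups, at most 12, by change in DAC+ATRA, and likeness took the 2 highest r (some genes under these rules are not reported here). Members and lists were chosen with earlier results of these data known. The fit was tested on simulated data.

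Other settings tried were edgeR 4.0.16 and DESeq2 1.42.0, run with recovered reads, other scalings, pseudocounts (0.1, 5), filters, features, thresholds, a replicate block and each library left out.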

Additional observations from a re-analysis of the deposited data

Results flagged for a closer look

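One result differed between groups under the same contrast by its own test. The effect of ATRA on CCND2, which encodes cyclin D2, was a log2 change of -1.39 in cells without DAC and 0.06 in cells with DAC, a difference of 1.45 on the log2 scale (limma, adjusted p = 3.44e-06). All 3 ATRA libraries lay below all 3 untreated ones, whereas DAC+ATRA and DAC libraries overlapped. Labels of time differ between ATRA and untreated (72 h and 96 h) but not between DAC+ATRA and DAC. Time and treatment therefore cannot be told apart in this difference. The difference was called in all 24 alternative fits, with values from 1.4 to 1.5 and adjusted p-values from 1.08e-23 to 4.85e-05.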

How the results depend on the processing

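Of 1392 values of the members under other settings, 1342 kept direction and side of the threshold, 15 lost a call, 16 gained one and 19 changed sign. Many of these values could not change sign. The filters, the replicate block, the fit of only the compared groups and the threshold of 0.05 left the log2 change as it was. So did leaving out a library outside the comparison. The number of members called with DAC (2) was 0 in a fit of only the compared groups and 1 to 3 with a library left out: 1 without untreated replicate 1 (CDKN2C lost), untreated replicate 2 (CDKN1B lost) or DAC replicate 2 (CDKN2C lost), and 3 without DAC replicate 3 (CCND3 gained). For DAC+ATRA against DAC (1) it was 2 at a threshold of 0.05 and 1 to 2 with a library left out, 2 without DAC replicate 3 (CDK6 gained). For DAC+ATRA against ATRA (5) it was 3 to 6, 3 without ATRA replicate 2 or DAC+ATRA replicate 2 (CDKN1B and CDK4 lost). The interaction count (1) was 2 with DESeq2, 2 at a threshold of 0.05 and 1 to 2 with a library left out, 2 without ATRA replicate 2 (CCND1 gained each time). The cause was not tested. CDK6 by its highest row alone was not called with ATRA (-0.51, limma adjusted p = 0.175) or DAC+ATRA (-0.55, 0.136).

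No value that changed sign had been called. For DAC, CDK4 (0.0031) was -0.0241 with total-count scaling and -0.0202 by its highest row. With a library left out, DAC gave -0.14 to 0.16 for CDK4 (negative without untreated replicate 1 or 3 or DAC replicate 1 or 2) and -0.37 to 0.21 for CDKN2D (positive without untreated replicate 2 or 3 or DAC replicate 1 or 3). From DAC to DAC+ATRA the ranges were -0.24 to 0.16 for CDKN2C (positive without DAC replicate 3 or DAC+ATRA replicate 2), -0.0218 to 0.46 for CCND1 and -0.0844 to 0.55 for CCND3 (both negative without DAC replicate 3). Interactions ranged from -0.42 to 0.17 for CDKN2D (positive without untreated replicate 1 or DAC replicate 2), -0.33 to 0.0645 for CDKN2C and -0.23 to 0.41 for CCND3 (both of the other sign without DAC replicate 3), and -0.0267 to 0.0973 for CDKN1B (negative without ATRA replicate 3).

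Replicate numbers did not pair the samples: same-numbered libraries deviated with r of -0.26 to 0.11 over 18 pairs, and 1 of 12 correlated best with its own number. The replicate block left the members called at 2 with DAC, 5 with ATRA, 3 with DAC+ATRA, 1, 5 and 4 between treated groups and 1 for the interaction, and called 742 genes in all with DAC against 848 without it. Depth limits CCND1 (7 to 29 reads in ATRA libraries) and CDKN2D most.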
